A study of Danio rerio with 3 samples.

Results

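The genes of CTCF and cohesin encode the proteins that hold chromosomes in loops and keep sister chromatids together. CTCF is a zinc finger protein that binds insulator sites and stops the cohesin ring there. The ring is built from Smc1a, Smc3, Rad21 and a Stag subunit. Nipbl loads it onto chromatin, and Pds5 proteins bind the ring and regulate its release. In zebrafish, loss of the Rad21 subunit is known to change the expression of developmental genes in the early embryo, and cohesin genes are widely expressed in dividing cells.

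The 10 genes ctcf, rad21a, rad21b, smc1a, smc3, stag1b, stag2b, nipbla, nipblb and pds5a were looked up through the RefSeq accession that the array files give for each probe. Of these, 7 genes had a probe, 11 probes in all, out of 43603 distinct probes and 11668 named genes on the array. The genes rad21a, smc3, ctcf and pds5a had 2 probes each, and rad21b, smc1a and nipblb had 1 each. No probe carried a RefSeq accession of stag1b, stag2b or nipbla, and these are not analysed here. The set was selected on the log2 ratios of morphant over wild type, in which the ctcf probes opposed each other, so the ratios of all its members are a description and carry no test.

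RNA came from whole zebrafish embryos that had received MO-grnA, an antisense morpholino against granulin A, and from untreated wild-type embryos. Both groups were taken 22 hours post fertilization (hpf). The injected volume was 2 to 3 nl, given to 1-cell embryos. There were 3 biological replicates with 200 embryos in each group, and each 2-colour Agilent array paired morphant with wild-type RNA. The dye of morphant RNA was Cy5, except on the dye-swapped array of replicate 3, where it was Cy3. Wild-type embryos were not injected, so injection itself is part of every ratio. In whole-embryo RNA, fewer cells of a type and less RNA per cell cannot be told apart. Of 16 tissue markers looked up, 15 were well above background in both channels of every array, and kdrl was the exception.

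Replicate 1 stood apart from the other arrays. It lay on slide 1 and replicates 2 and 3 on slide 2, and the scans grouped the same way. Of its spots that were not controls, 7.49% were marked by the scanner software as uneven or outlying, against 0.915% and 0.909% on replicates 2 and 3. Across tested probes the log2 ratios of the arrays correlated at r = 0.837 (replicates 1 and 2), 0.818 (1 and 3) and 0.851 (2 and 3). These correlations are across probes, which are not independent replicates.

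Tested probes were those well above background on all arrays in at least one of the groups that also had an unmarked spot on every array, which 25071 probes did. Of the member probes, 8 were tested, from 5 genes. Counted at an adjusted p under 0.05 in limma over all tested probes, 1 of them was lower and 1 higher in morphants, and both were probes of ctcf. Among all tested probes 37.6% were called, 18% higher and 19.6% lower. Since these ratios selected the set, the members' count is given as a description beside that share and nothing is read from it. The other 6 tested member probes, from the cohesin genes, had mean log2 ratios between -0.19 and 0.30. The sign agreed over the 3 arrays for 5 of the 8 tested member probes, against 65% of all tested probes.

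**Figure D1:**
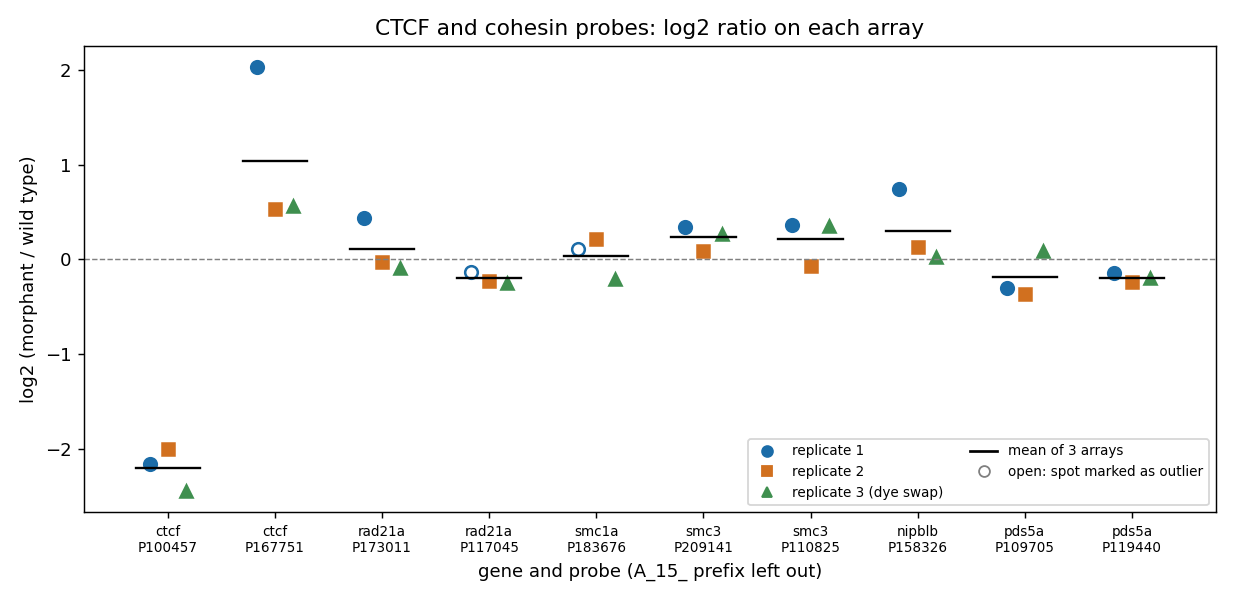
Log2 ratio of morphant over wild type (vertical axis) of 10 member probes (horizontal axis) on each array; points are arrays, open points are marked spots and lines are means. The ctcf probes lie near -2.2 and 1.04, while the cohesin means drawn lie between -0.20 and 0.30. The probe of rad21b, which was near the detection limit, is not drawn.

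Both ctcf probes are annotated in the files to one accession, NM_001001844, and RefSeq lists 4 transcripts for the gene. The sources used here do not give where in the transcript either probe lies. The brighter probe, A_15_P100457, had log2 ratios of -2.16, -2.00 and -2.44 on replicates 1 to 3. Its mean was -2.20 ± 0.23 (SD, n = 3), which is 4.59-fold lower in morphants. All 3 arrays gave a fall of similar size, in both dye orientations and on both slides.

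The median spot intensity of A_15_P100457 in the morphant channel was 42303, 13513 and 6352 on replicates 1 to 3, against 62313, 30411 and 70276 in the wild-type channel. These intensities are not yet scaled between dyes. After loess and scaling between arrays, its log2 intensity averaged 13.69 ± 0.24 in morphants and 15.89 ± 0.11 in wild type (SD, n = 3 each). The morphant and wild-type values did not overlap. This describes values that selected the set, and the share of all tested probes without overlap is not given here. Of the 25071 tested probes, 34 had a ratio this low or lower, itself included.

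The second ctcf probe, A_15_P167751, ran the other way. Its log2 ratios were 2.03, 0.53 and 0.56 on replicates 1 to 3, with a mean of 1.04 ± 0.85 (SD, n = 3), or 2.06-fold higher in morphants. The sign was the same on all arrays, but the size was set by replicate 1. Without replicate 1, which is also the value within slide 2, the mean was 0.55. With slide as a fixed term, which weights the slides equally, it was 1.29.

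Before scaling, A_15_P167751 had morphant intensities of 25792, 2892.5 and 2067 on replicates 1 to 3, against 2432, 1222.5 and 2521.5 in the wild-type channel. The scaled log2 intensities were 12.90, 11.81 and 11.87 in morphants, and 10.87, 11.27 and 11.31 in wild type. On replicate 1 the morphant value was thus the highest and the wild-type value the lowest of its group. The groups did not overlap, which is again a description, without the share over all tested probes. Of the tested probes, 380 had a mean ratio this high or higher, itself included.

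**Figure D2:**
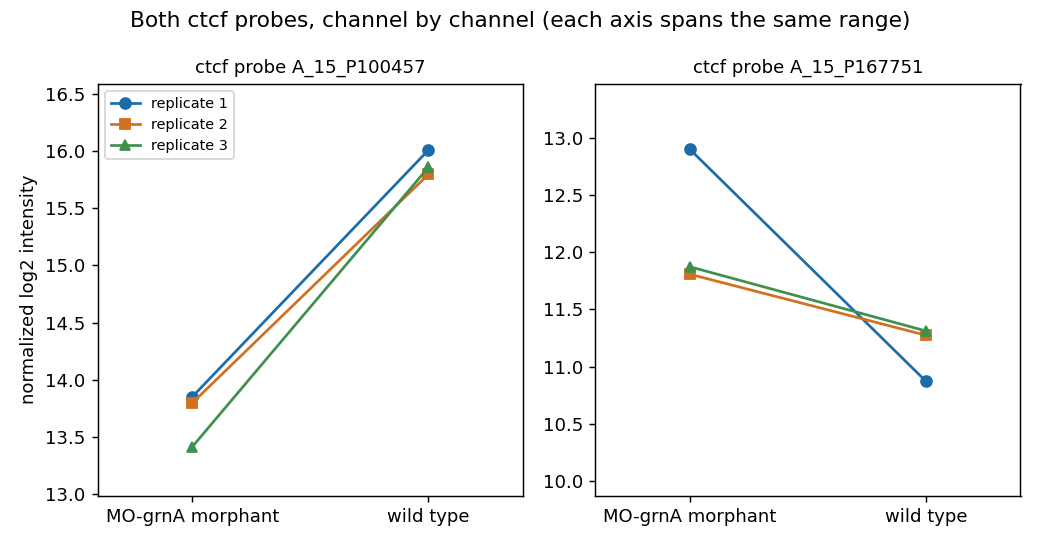
Normalized log2 intensity (vertical axis) of both ctcf probes in the morphant and wild-type channel of each array, joined by array. The lines of A_15_P100457 climb toward wild type on every array, and those of A_15_P167751 descend on every array, most steeply on replicate 1.

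The difference between the ctcf probes was present on every array. A_15_P167751 exceeded A_15_P100457 by 4.18, 2.53 and 3.00 on replicates 1 to 3, in log2 ratio. Spots around them did not share these ratios. Within 3 rows and 3 columns, the median log2 ratio of 42 to 47 unmarked spots lay between 0.0013 and 0.06 around A_15_P100457 and between -0.15 and -0.03 around A_15_P167751. Neither ctcf spot was marked on any array, and both were well above background in both channels of all 3. The dye effect, taken as red over green averaged over both orientations, was 0.18 for A_15_P100457 and 0.36 for A_15_P167751. From replicates 2 and 3 alone, one of each orientation on slide 2, it was 0.22 for A_15_P100457 and -0.01 for A_15_P167751.

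Of 2678 genes with more than 1 tested probe, 819 (30.6%) had probes with means on either side of 0, and 63 (2.35%) had one probe called higher and another called lower. The set was selected on the opposed ctcf probes, so their place among these genes is a description. The median difference between the highest and the lowest probe of a gene was 0.19 on the log2 scale, and the 95th percentile was 0.91. The ctcf difference of 3.24 was the second largest of all, exceeded by 1 gene. That was cyp51, a sterol-synthesis enzyme gene, with probes at 3.89 and -0.04. Next after ctcf came cyp11a1.1, which encodes a steroid-synthesis enzyme, with probes at 2.99 and -0.08. In both of these one probe was near 0, so among the 3 genes with the largest differences only ctcf had calls in both directions.

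**Figure D3:**
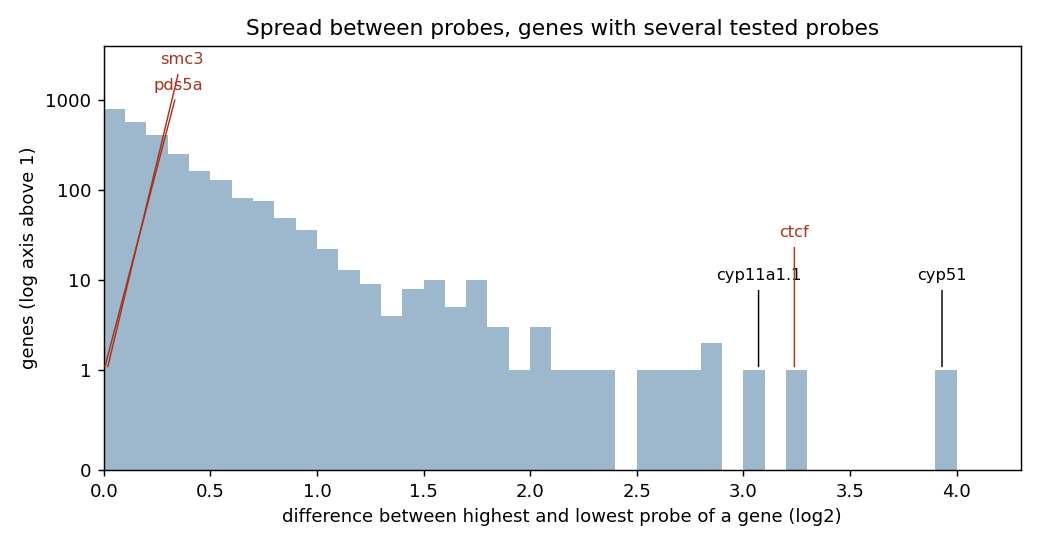
Number of genes (vertical axis, logarithmic above 1) by the difference in log2 ratio between their highest and lowest tested probe (horizontal axis). The ctcf difference of 3.24 lies far to the right of the 95th percentile of 0.91, and smc3 and pds5a lie at the left edge.

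The ring subunit genes had small ratios. For smc3, which encodes one of the SMC arms of the ring, probe A_15_P209141 gave 0.34, 0.09 and 0.27 on replicates 1 to 3. Its second probe, A_15_P110825, gave 0.37, -0.07 and 0.35. The fitted means were 0.23 (SE 0.09) and 0.22 (SE 0.11). Replicate 2 was the lowest array on both probes, and the probes differed by 0.015 in their means. With median centring they were at 0.44 and 0.41, when the median of all tested probes moved to 0.10.

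The other SMC arm gene, smc1a, had a single probe, with ratios of 0.10, 0.21 and -0.21 on replicates 1 to 3. The replicate 1 spot was marked, so the probe was not in the fit. With marked spots kept, its mean was 0.03 (SE 0.10). Its arrays fell on both sides of 0.

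The kleisin gene rad21a, whose product closes the ring, had probes with means on either side of 0. The brighter probe, A_15_P173011, gave 0.43, -0.03 and -0.09 on replicates 1 to 3, with a fitted mean of 0.10 (SE 0.11). Replicate 1 alone was above 0, and without it the mean was -0.06. The other probe, A_15_P117045, gave -0.13 on replicate 1, where its spot was marked, and -0.22 and -0.25 on replicates 2 and 3. Its mean was -0.20 (SE 0.08) with the marked spot kept and -0.24 (SE 0.10) from replicates 2 and 3 alone.

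The second kleisin gene, rad21b, was near the detection limit. Its spot intensity was 117, 73.5 and 58.5 in the morphant channel of replicates 1 to 3, over local backgrounds of 49, 52 and 37. In the wild-type channel it was 70, 62 and 72, over 27, 34 and 46.5. The probe was well above background on 1 of 3 arrays in the morphant channel and on 0 of 3 in the wild-type channel. No fold change is given for it, and any difference in rad21b was not detectable at this signal.

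The loader gene nipblb was also dim. Its probe gave log2 ratios of 0.74, 0.13 and 0.02 on replicates 1 to 3, with a fitted mean of 0.30 (SE 0.14). As for ctcf A_15_P167751, replicate 1 was the highest array. Before scaling between dyes, its morphant intensity there was 407.5, against 109.5 in wild type. Replicates 2 and 3 had 141 and 91 in morphants, against 96 and 121.5 in wild type. After scaling, the log2 intensities on replicate 1 were 7.58 in morphants and 6.84 in wild type. With slide as a fixed term the nipblb mean was 0.41, and within slide 2 it was 0.08.

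The regulator gene pds5a had both probes slightly below 0. The bright probe, A_15_P109705, gave -0.30, -0.36 and 0.09 on replicates 1 to 3. The dim probe, A_15_P119440, gave -0.14, -0.24 and -0.19. Their fitted means were -0.19 (SE 0.11) and -0.19 (SE 0.08). Replicate 3, the dye swap, lay above 0 on the bright probe alone, and without it the means were -0.33 for the bright probe and -0.19 for the dim one. With median centring in place of loess the bright probe was at 0.03, when the median of all tested probes moved to 0.10.

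Other genes of the cohesin cycle were measured for comparison, each by its brightest tested probe. Like the members, this list and those that follow were chosen with earlier results of these data known. Their counts, medians and adjusted p-values are therefore a description of the genes listed. Of 20 such genes looked up, 9 were tested, and 4 rose, 1 fell and 4 were not called. Among all 9231 tested named genes 41.3% were called, 19.3% higher and 22% lower. The median of the 9 was 0.21, against -0.00077 over all tested named genes. Without replicate 3, or with a dye term, 2 rose and 1 fell, when 27.7% and 31.8% of all tested named genes were called. With slide as a fixed term 5 rose and 3 fell (50.9% of all called), and with median centring none was called (2.87% of all). The slide term leaves the difference between slides out of the error, so its counts are not comparable with those as reported.

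Genes that establish cohesion in S phase were among the rises. The Smc3 acetyltransferase gene esco2 had ratios of 0.62, 0.48 and 0.59 on replicates 1 to 3 (mean 0.56, SE 0.08, limma adjusted p = 0.00136). The sororin gene cdca5 gave 0.42, 0.38 and 0.45 (mean 0.42, SE 0.08, limma adjusted p = 0.00480). The arrays were close to each other for both genes. The Smc3 deacetylase gene hdac8 had a mean of 0.27 (SE 0.08, limma adjusted p = 0.0368). It was not called without replicate 2 (adjusted p = 0.122) or without replicate 3 (adjusted p = 0.150), nor with a dye term, an offset of 0 or median centring.

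A further gene, smc1al, had probes that differed. Its bright probe gave 1.60, 0.18 and 0.66 on replicates 1 to 3 (mean 0.81, SE 0.22, limma adjusted p = 0.0240), and its second probe had a mean of -0.06. Replicate 1 again gave the highest value, and without it the bright probe was at 0.42. It was not called without replicate 3 (limma adjusted p = 0.112), nor with a dye term, the log ratio of the scanner software or median centring. The shugoshin gene sgo1, whose product protects cohesin at centromeres, was the 1 gene that fell, with -0.60, -0.39 and -0.84 on replicates 1 to 3 (mean -0.61, SE 0.10, limma adjusted p = 0.00285). The values of pds5b (0.14), stag2a (-0.25), the meiotic kleisin gene rad21l1 (-0.29) and sgo2 (0.21) did not pass.

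Related SMC complexes showed the same split between probes in places. Of 7 tested genes of condensin and the SMC5/6 complex, 3 rose, 1 fell and 3 were not called, where 19.3% of all tested named genes were called higher and 22% lower. The condensin kleisin gene ncaph had one probe at 1.04 (SE 0.09) and another at -0.48 (SE 0.08), both called, so it is one of the 63 genes with opposed calls. The condensin II gene ncapd3 fell (-0.83, SE 0.10), and ncapd2 rose (0.38, SE 0.09). The core condensin gene smc2 rose (0.40, SE 0.09), and its 5 probes had means between -0.16 and 1.06. The probe at 1.06 gave 1.77 on replicate 1, against 0.58 and 0.82 on the other arrays. Without replicate 2, or with a dye term, 2 of the 7 rose, when 14% and 14.6% of all tested named genes were called higher. With median centring none was called (2.87% of all).

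Genes whose products bind CTCF or act beside it as architectural factors came next. Of 10 tested, 2 rose, 1 fell and 7 were not called, with a median of 0.02, where 41.3% of all tested named genes were called. The topoisomerase gene top2b rose (0.52, SE 0.12), and 2 further tested probes of it gave 0.66 and 0.70. Replicate 1 was the highest array on each of these probes. The first probe gave 0.85, 0.29 and 0.43 on replicates 1 to 3, and its mean was 0.36 without replicate 1. On replicates 2 and 3 the probe at 0.66 gave 0.36 and 0.40, and the probe at 0.70 gave 0.31 and 0.28. The poly(ADP-ribose) polymerase gene parp1 rose (0.32, SE 0.09). A brighter parp1 probe, not in the fit because its spot was marked on 1 array, had a mean of -0.02. The zinc finger gene znf143a fell (-0.39, SE 0.09), with a second probe at -0.14. Without replicate 2, 1 of the 10 rose and none fell, and without replicate 3 none rose. The shares of all tested named genes called were then 30.5% and 27.7%. With slide as a fixed term 4 rose and 2 fell (50.9% of all tested named genes were then called). With median centring none was called (2.87% of all).

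The list of genes reported to depend on cohesin or Nipbl in zebrafish was chosen with some of these values known, so its count describes the genes listed and supports nothing about such genes in general. Of 5 tested, 4 fell and none rose, with a median of -0.43, where 22% of all tested named genes were called lower. Of 14 tested tissue markers of the embryo, 4 fell and 1 rose, with means between -0.64 and 0.44, and their part in these values was not tested. Of the 5 cohesin-dependent genes, 3 fell with any 1 replicate left out, 2 with the log ratio of the scanner software and 1 with median centring. The shares of all tested named genes called lower were then 15.9% to 19.4%, 19.5% and 1.33%. The endoderm regulator genes sox32 (-1.87, SE 0.08), gata5 (-1.06, SE 0.12) and foxa2 (-0.43, SE 0.12) fell. On replicates 1 to 3 foxa2 gave -0.66, -0.53 and -0.10. It was not called without replicate 2 (limma adjusted p = 0.0753), with the log ratio of the scanner software or with median centring. For runx3, a blood and cartilage regulator, the mean was -0.28 (SE 0.09, limma adjusted p = 0.0440), and its second probe had -0.21. The proto-oncogene myca had 0.05, -0.0012 and -0.25 on replicates 1 to 3, and was not called. The blood stem cell regulator runx1 was well above background on too few arrays to be tested.

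Proliferation genes lay slightly above 0. Of 17 tested proliferation genes 6 rose and none fell in limma, with a median of 0.24, where 19.3% of all tested named genes were called higher. They included pcna (0.62), the replication helicase gene mcm4 (0.59), the cyclin gene ccnb1 (0.48) and the ribonucleotide reductase gene rrm1 (0.44). Brighter probes of mcm4 and ccnb1, not in the fit because of a marked spot, had means of 0.15 and 0.30. The count of rises was 12 with slide as a fixed term, when 24.5% of all tested named genes were called higher. It was 0 with median centring, when 1.54% of all were called higher. There 17 of 17 had a ratio above 0 and the median of all named genes moved to 0.13.

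**Figure D4:**
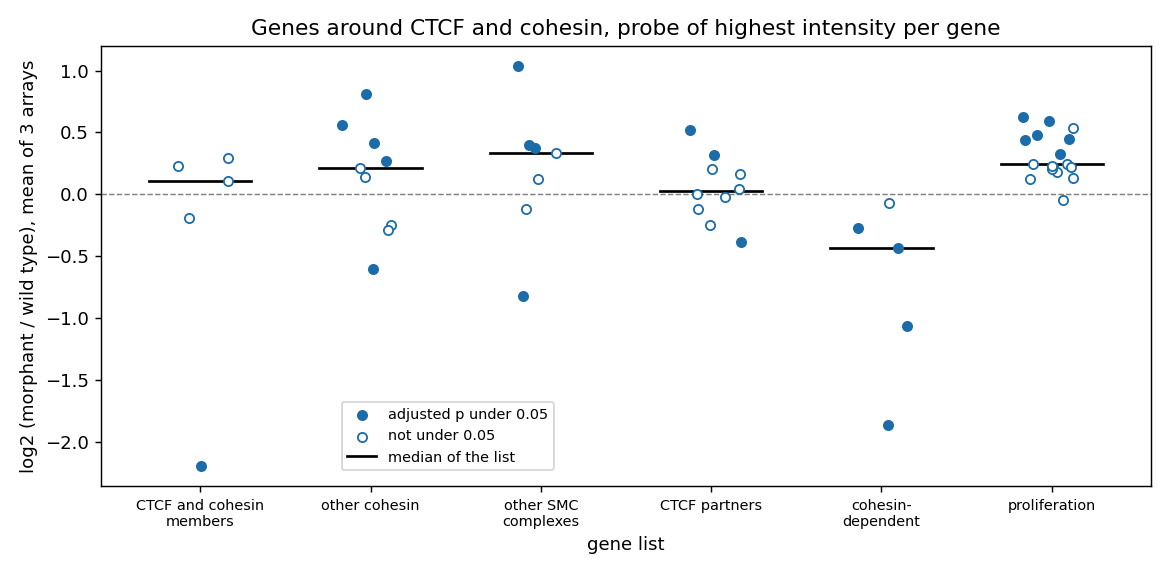
Log2 ratio of morphant over wild type (vertical axis), mean of 3 arrays, for each tested gene by list (horizontal axis). Each gene is shown by its brightest tested probe. Filled points passed the adjusted p and lines are medians. The members other than ctcf lie within 0.30 of 0, and 16 of the 17 proliferation genes lie above 0.

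The genes whose ratios were most like those of each ctcf probe were sought among the 9230 other tested named genes, by the root mean square difference over the 3 arrays. Nearest to A_15_P100457 were rab27a (0.14), a Rab GTPase gene, gbp1 (0.16), a guanylate-binding protein gene, and cyp1a (0.19), a cytochrome P450 gene. For rab27a the ratios were -2.05, -2.13 and -2.28 on replicates 1 to 3. Nearest to A_15_P167751 were aacs (0.13), which encodes acetoacetyl-CoA synthetase, and the dynein chain gene dync1i2a (0.18). The search picked them for likeness, so their shared shape is fixed by it. Both had replicate 1 far above the others, such as aacs at 1.83, 0.49 and 0.45.

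A shift of this kind on replicate 1 was rare among the tested probes, which leave out any probe without an unmarked spot on every array. Some probes of smc1al, smc2 and top2b also had replicate 1 far above the other arrays. Of the 25071 tested probes, 199 (0.794%) had a replicate 1 ratio at least 1 log2 unit above the mean of replicates 2 and 3, and 23 (0.0917%) at least 1 unit below. For A_15_P167751 the shift was 1.48, and 35 probes (0.140%) had one this large or larger, itself included. Among the other member probes it was 0.66 for nipblb and 0.49 for rad21a A_15_P173011, and at most 0.22 in size for the rest. The part that the marked spots or the brightness of replicate 1 had in this shift was not tested.

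**Figure D5:**
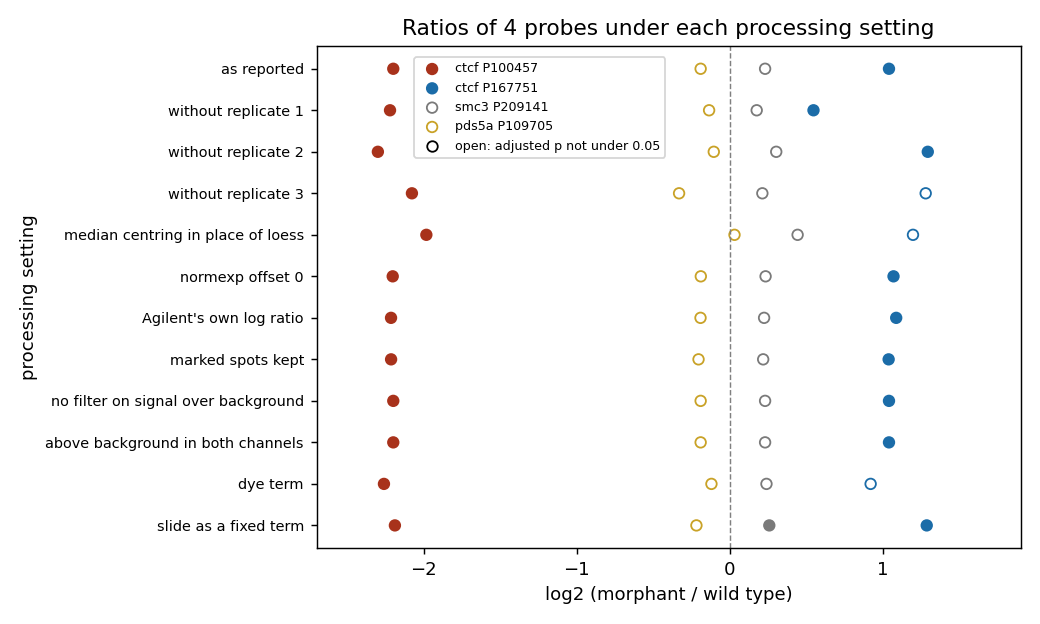
Log2 ratio of morphant over wild type (horizontal axis) of 4 member probes under each processing setting (vertical axis); filled points passed the adjusted p. A_15_P100457 lies between -2.30 and -1.98 throughout, and A_15_P167751 between 0.55 and 1.29. Filled points are a description here, since these ratios selected the set.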

How the data were processed

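The authors quantified the 2-colour Agilent arrays (design 019161) with Feature Extraction, version 8.5.1.1 per the submitters' processing notes and 10.5.1.1 per the file headers. The deposited files give median spot and background intensities for both dyes, processed intensities and the log10 of red over green. The deposited value table repeats these log10 ratios, with replicate 3 inverted, to within 4.95e-06. Direction rests on the dyes in the labels.

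Ratios were recomputed from median intensities with normexp background correction (offset 50) and loess on each array (limma 3.58.1, R 4.3.3). Weight 0 was given to controls and outlier spots. The sign of replicate 3 was turned, so ratios are morphant over wild type. No spot other than controls was saturated. Each ratio was fitted against 0 with lmFit and eBayes over all tested probes, two-sided, with Benjamini-Hochberg adjustment and a threshold of 0.05, and the fit was tested on simulated data. The 3 arrays limit the precision.

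Accessions were matched to RefSeq symbols (assembly GRCz12tu), which named 16770 probes and left 26833 unnamed. No coordinates are printed, since the files use an older build. Members and gene lists were chosen with earlier results of these data known. Named are all member probes, all tested genes of the cohesin list, up to 4 called genes of largest ratio in other lists with runx1, runx3 and myca, the 3 nearest genes of each ctcf probe and the 3 genes with the largest difference between probes. Second probes are given beside some of them, and other named genes have further probes that are not printed. One gene list and 1 of the nearest genes that this rule would name are not reported here.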

Additional observations from a re-analysis of the deposited data

How the results depend on the processing

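Both ctcf probes kept their direction under all 11 alternatives, 10 of them planned and slide as a fixed term added after seeing the data. Each probe had the same sign on every array. Leaving out a replicate, or adding a dye or slide term, therefore could not turn its direction. The settings that changed only the filter on signal left both ratios as they were. These directions selected the set, and nothing is read from their staying the same. The difference between the ctcf probes lay between 2.77 and 3.59 over the left-out replicates, against 3.24 as reported. The higher probe, A_15_P167751, was no longer called without replicate 3, with median centring and with a dye term. These calls describe a probe that the set was selected on, and nothing is read from them. The number of member probes called was 2 as reported. It was 1 with median centring (2.85% of all tested probes called), 1 with a dye term (28.1%) and 5 with slide as a fixed term (48.8%). Over the left-out replicates it lay between 1 (without replicate 3, 24.7%) and 3 (without replicate 2, 29.3%). The calls beyond ctcf were all higher in morphants. They were smc3 A_15_P110825 without replicate 2, and both smc3 probes and nipblb with slide as a fixed term. Of all tested probes 9435 were called, and 715 with median centring (409 higher and 306 lower), or between 6187 (without replicate 3) and 8234 (without replicate 1) with a replicate left out. The cause was not tested. The fixed slide term removes the difference between slides from the error, which then rests on the spread between replicates 2 and 3. With slide as a random block, duplicateCorrelation gave no estimate, so this alternative was not run. The fit was itself paired, because each array holds a morphant and wild-type pair and gives 1 ratio. Dim probes limit rad21b, nipblb and pds5a A_15_P119440, and an offset of 50 pulls their ratios toward 0. For nipblb the mean was 0.30 as reported, 0.41 with an offset of 0 and 0.53 with the log ratio of the scanner software. With an offset of 0 the dim pds5a probe was at -0.28 and the bright one at -0.19, so the close match of their means depends on the offset.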
